A study of Mus musculus with 6 samples.

Results

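DNA replication and S phase genes were followed in CT26 tumors as 37 genes out of the 23557 in the table, taken by name for their parts in origin licensing, DNA synthesis, nucleotide supply and entry into S phase. They cover 8 roles, from the pre-replicative complex to the maintenance of DNA methylation. CT26 is a mouse colorectal carcinoma line, and the tumors grew under the skin of female Balb/c mice, the strain it came from, at 7 weeks of age. From day 6 the mice received NaCl, or H89 at 10 mg/kg, into the peritoneum 2 times a week, and 3 tumors of each group were removed on day 14 after the cells were injected. H89 blocks several kinases, of which protein kinase A is the best known. Total RNA of each whole tumor was sequenced on the BGISEQ-500 system, so that tumor cells and host cells were read together. NaCl tumors 1, 2 and 3 had totals of 29067921, 27067349 and 27883614 estimated counts, and H89 tumors 1, 2 and 3 had 28548727, 31958793 and 30936962. Values below are counts per 1000000 (CPM), scaled between tumors by the TMM method of edgeR. At the lowest total, 1 count was worth 0.0369 CPM, and the members' counts lay between 149 (Orc1) and 10692 (Pcna) per tumor.

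Before S phase, the origin recognition complex, Cdc6 and Cdt1 load the MCM helicase onto DNA, and at the onset of S phase Cdc45 and the GINS complex join the helicase and the DNA polymerases follow. Many of these genes are switched on by E2F factors once cyclin-dependent kinases have freed them from the RB proteins, and their RNA is abundant in dividing cells. In a growing tumor, that RNA can come from the tumor cells and from dividing host cells alike.

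All 37 members passed the filter of a mean of at least 0.5 CPM over the 6 tumors, and edgeR's quasi-likelihood test for a difference between H89 and NaCl tumors was run on the 13118 genes that did so, with p-values adjusted by the Benjamini-Hochberg method over all of them. Dut, which breaks down dUTP, was the only member with an adjusted p under 0.05, 1 of 37 or 2.70%, and it was lower in H89 tumors. Of all genes tested, 1.59% passed that threshold, 0.724% lower and 0.861% higher. At an unadjusted p under 0.05, 6 members were lower in H89 tumors (Mcm7, Cdc45, Pold2, Rfc2, Fen1 and Dut), which is 16.2% against 11.9% of all genes tested. On the higher side edgeR called 0 members at that threshold, against 13.1% of all genes tested. All 3 H89 values lay below all 3 NaCl values for 7 members, the same 6 and Lig1 (18.9% against 15.5%), and above them for 1 member, Orc1 (2.70% against 15.2%). The shares lower at an unadjusted p or without overlap were near those of all genes tested and are not a result about these genes, and the 2.70% lower at an adjusted p is a single gene. On the higher side the members' shares were below those of all genes tested, and which members were called there depended on the scaling and on single tumors.

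DESeq2 and limma also called 0 members higher at an unadjusted p under 0.05. A filter at 5 CPM, leaving out H89 tumor 3 and scaling by the total count only each gave 3, namely Orc1, Cdc6 and Prim1 (8.11%, against 13.2%, 10.6% and 17.5% of genes in the same fits), and leaving out H89 tumor 1 gave 1, Mcm4 (2.70% against 12.4%). Scaling by the total count moved the median of all genes tested to 0.08, with 905 lower (6.90%) and 2292 higher (17.5%) in place of 1566 and 1719, and 4 members lower (Mcm7, Pold2, Fen1 and Dut). At an adjusted p under 0.05, the total count gave 0 members, and so did quantile normalization tested with limma, which limma alone did not (1, Dut). DESeq2 was run without the filter at 0.5 CPM but with its own default filter on mean counts, and its adjustment took in only the genes kept. It gave 4 of 37 members, the same Mcm7, Pold2, Fen1 and Dut, all lower. Of the 18828 genes with a p-value, it called 1392 (7.39%), 758 lower and 634 higher. Run without a filter and adjusted over all 18837 genes, edgeR gave 1 member, Dut, and 311 genes (1.65%). The log2 fold change, positive where H89 tumors were higher, had a median of -0.11 over the members and of 0.00 over all genes tested. Its standard error (SE) follows the ± sign below. It ran from -0.49 for Dut to 0.31 for Orc1, was below 0 for 27 members and above 0 for 10, and lay within 0.2 of 0 for 27 members. The median moved to -0.04 with the total count only and to -0.05 with quantile normalization and limma, where 22 and 23 members were below 0. Mcm2, Rrm2, E2f1 and Dnmt1 changed sign under both, and Orc6 with the total count. Cdc45 and Rfc2 were not called under either, with -0.14 and -0.18 with the total count and -0.18 and -0.19 with quantile normalization. The plot of log2 fold changes by role shows how close to 0 most members lay, and the plot of shares sets the members beside all genes tested.

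**Figure D1:**
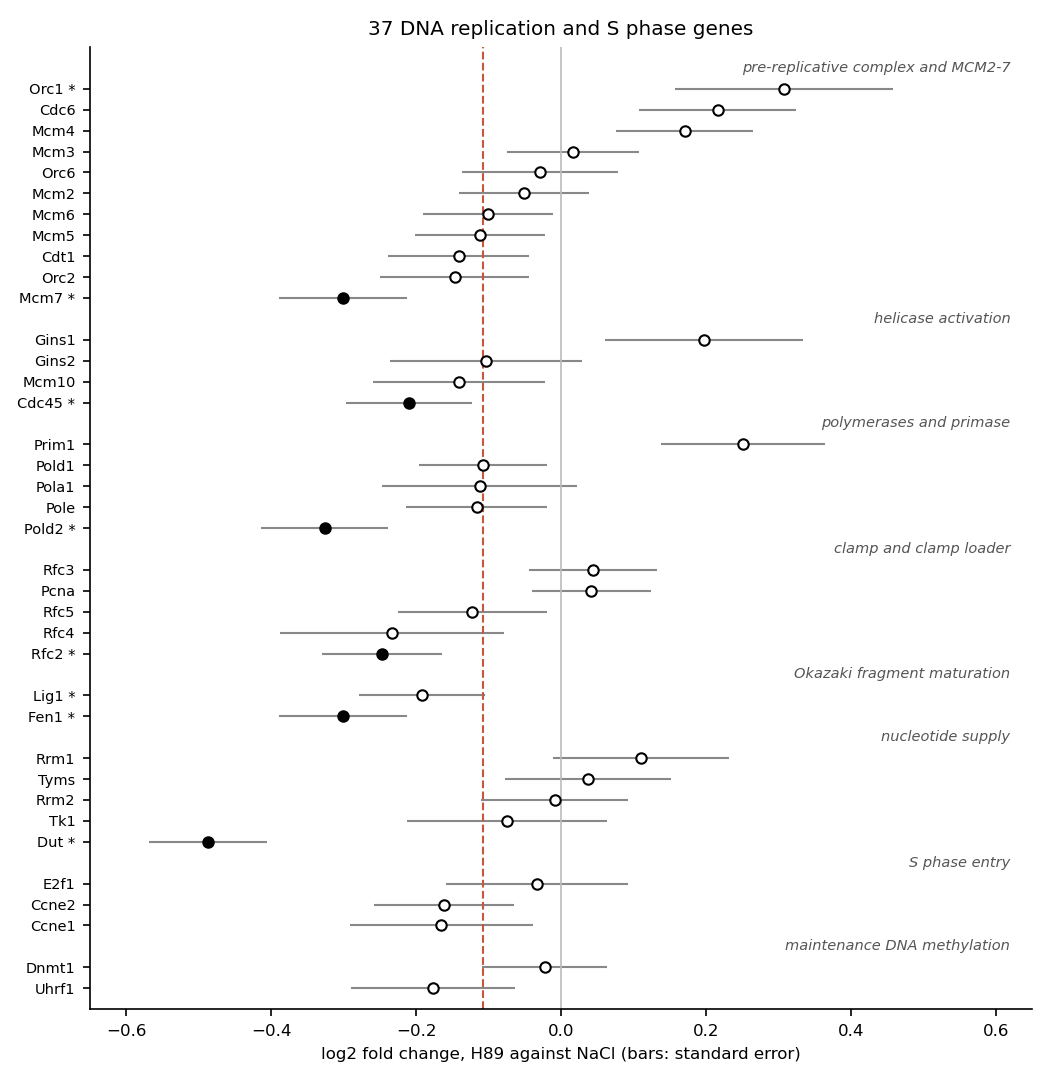
Log2 fold change of each of the 37 members, H89 against NaCl tumors, with its standard error, grouped by role; filled circles have an unadjusted p under 0.05, asterisks mark members whose groups do not overlap and the dashed line is the members' median (-0.11). Dut lies farthest below 0 (-0.49) and Orc1 farthest above (0.31).

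**Figure D2:**
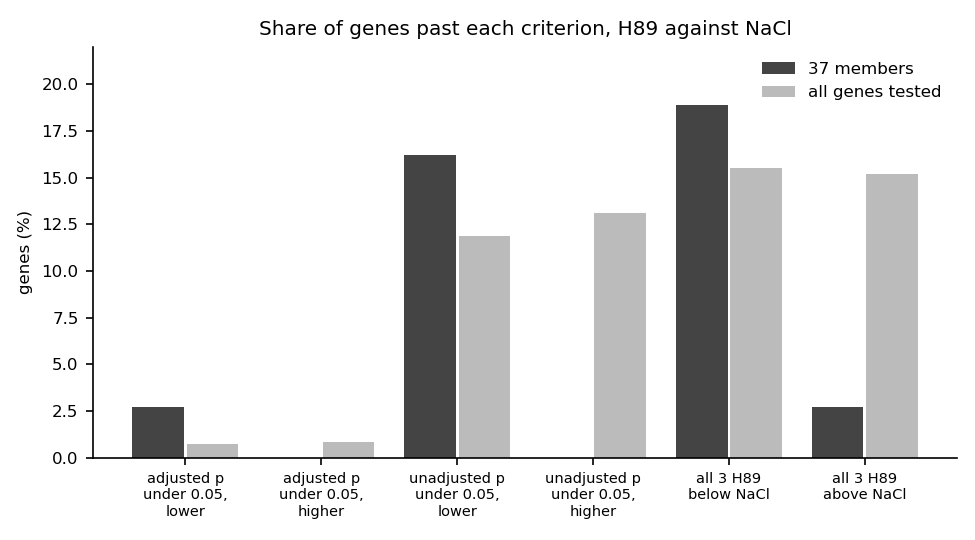
Percent of the 37 members (dark bars) and of all 13118 genes tested (light bars) past each criterion, by direction. On the lower side the bars are 16.2% beside 11.9% and 18.9% beside 15.5%, and on the higher side the members reach 2.70% at most.

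H89 tumor 3 stood apart from its replicates over all genes, with a chi-square per gene of 112 and 88.8 against H89 tumors 1 and 2, where the other pairs within a group had 28 to 44.3. In the fit without it, 4 members were lower (Mcm7, Pold2, Fen1 and Dut, 10.8% against 9.41% of genes) and 3 higher (8.11% against 10.6%) at an unadjusted p under 0.05. The same 4 were the lower ones without NaCl tumor 2 and without H89 tumor 2. No fit that left out a tumor gave a member at an adjusted p under 0.05. The 3 higher members were called in no other fit that left out a tumor. The members did not separate the tumors by group as a whole. NaCl tumor 2 had the highest CPM for 17 of the 37 members and the lowest for 0, while H89 tumor 3 had the lowest for 16 and the highest for 0. The median deviation of the members from their own mean over the 6 tumors, on the log2 scale, was 0.02, 0.12 and -0.05 in NaCl tumors and -0.04, 0.04 and -0.10 in H89 tumors. H89 tumor 2 therefore lay above NaCl tumors 1 and 3, H89 tumor 1 lay above NaCl tumor 3, and the groups overlapped. Summed, the members made up 0.359%, 0.397% and 0.351% of the counts in NaCl tumors and 0.345%, 0.387% and 0.362% in H89 tumors. Among replicates the members varied little, with a median coefficient of variation of 7.59% in NaCl and 8.05% in H89 tumors and a median standard error of the log2 fold change of 0.10. In these bulk samples, fewer dividing cells and less RNA of these genes per cell cannot be told apart.

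Markers of other cell types differed between the tumors, and their part in the members' values was not tested. Their summed CPM is given for NaCl tumors 1 to 3 against H89 tumors 1 to 3, with log2 fold changes for genes at an unadjusted p under 0.05, here called. Of all genes tested, 11.9% were called lower and 13.1% higher. T cell markers (8 of 9 matched and tested, 6 higher, 0 lower) summed to 25.8, 13.6 and 11.9 against 44.2, 24.1 and 62.2 CPM, with H89 tumor 2 below NaCl tumor 1. Cd8a was the most abundant of them, and the 4 with the smallest p had 1.64 for Cd3g, 1.76 for Cd8a, 1.76 for Cd5 and 1.28 for Cd3d. Without H89 tumor 3, Cd3g had 1.08 and Cd8a 1.03, and without NaCl tumor 1, Cd5 had 2.67. Cytotoxic lymphocyte markers (7 tested, 2 higher), led by Gzmb, summed to 114, 69.7 and 20.8 against 114, 68.3 and 208 CPM, with 1.62 for Klrk1 and 1.45 for Ncr1. H89 tumor 3 stood highest in both lists, and NaCl tumor 1 was as high as H89 tumor 1 in the cytotoxic list. Dendritic cell markers (4 of 6 tested, 4 higher), led by Zbtb46, summed to 15.4, 13.1 and 13.0 against 18.2, 23.9 and 25.7 CPM without overlap, with 2.07 for Xcr1, 0.86 for Itgax, 0.38 for Zbtb46 and 0.98 for Clec9a (0.62 without H89 tumor 3). Fibroblast markers (7 tested, 3 higher, 1 lower), led by Col1a2, summed to 2756, 2592 and 2513 against 3585, 3402 and 2809 CPM without overlap, with -0.62 for Pdpn, 0.49 for Col3a1, 0.32 for Col1a2 and 0.34 for Dcn (0.19 without NaCl tumor 2). B cell markers (2 of 5 tested, Cd79a higher at 0.92), led by Cd79b, summed to 1.40, 1.72 and 1.86 against 2.32, 3.43 and 2.55 CPM without overlap.

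The other marker lists overlapped between the groups. Macrophage markers (9 tested, 0 called), led by Lyz2, summed to 2243, 3476 and 2994 against 2666, 2623 and 3182 CPM. Endothelial markers (6 tested, 0 called), led by Cdh5, summed to 94.9, 128 and 159 against 80.9, 122.5 and 97.8 CPM, and pericyte and smooth muscle markers, led by Pdgfrb (0.24, 1 of 6 called), to 129, 122.5 and 149.6 against 143, 157 and 129 CPM. Of the 6 endothelial markers 5 had log2 fold changes below 0, with a list median of -0.31. Of the 6 pericyte and smooth muscle markers 3 were below 0, Rgs5 at -0.50, Cspg4 at -0.18 and Acta2 at -0.05. Myh11 and Des had 0.35 and 0.04, and the list median was -0.01 (-0.19 with quantile normalization and limma). Without NaCl tumor 3, Rgs5 had -0.17 and Cspg4 0.04. Neutrophil markers, led by Csf3r (0.90, 1 of 4 called) and with Ly6g at 0, summed to 16.2, 16.9 and 20.5 against 21.9, 20.3 and 34.5 CPM. The other 3 were not called, at -0.85 for S100a8, -0.70 for S100a9 and 0.29 for Cxcr2, and the list median was -0.20 (-0.38 with quantile normalization and limma). With a tumor left out they ran from -2.05 to -0.43, -2.90 to -0.01 and 0.18 to 0.40. Erythroid markers (4 tested, 0 called), led by Hba-a2, summed to 88.2, 65.1 and 106 against 29.5, 21.3 and 221 CPM. H89 tumor 3 was the highest in both of these lists. Skeletal muscle markers, led by Acta1 (3.97, 1 of 4 called), reached 23.1 CPM in H89 tumor 1 and at most 3.68 CPM in the other tumors. Adipocyte markers, led by Fabp4, summed to 11.2, 28.8 and 35.0 against 32.7, 19.3 and 13.0 CPM, with Cfd at 3.90 (1 of 2 called). Fabp4, not called, went the other way, at -0.43 (-0.10 without NaCl tumor 3). The sum was mostly Fabp4, and H89 tumor 1 was the highest for other genes, with Cfd at 7.45 CPM against at most 0.447 and Adipoq at 1.497 CPM against at most 0.0912 in the other tumors. Keratinocyte markers, led by Krt10 (1 tested, 0 called) and with Krt1 and Ivl at 0, summed to 2.84, 2.01 and 3.47 against 3.64, 3.62 and 2.98 CPM. These 3 lists were low next to the macrophage and fibroblast lists. Epithelial markers, led by Krt18 (-1.04, 1 of 4 called), summed to 16.9, 15.0 and 26.5 against 16.3, 11.5 and 11.4 CPM, and for a line of epithelial origin the defining markers were low, with Cldn4, Vil1 and Cdx2 under 1 CPM in every tumor and Epcam at most 1.18 CPM. Without being called, Krt8, Krt19 and Cdh1 had 1.03, 2.56 and 0.05, against the direction of Krt18, and the list median was 0.54 (0.17 with quantile normalization and limma). Krt8, Krt19 and Epcam were each highest in H89 tumor 1, without which Acta1, Cfd and Krt19 did not pass the filter, and with a tumor left out Krt8 ran from 0.22 to 2.77 and Cdh1 from -0.23 to 0.66. Quantile normalization with limma gave smaller log2 fold changes for Cd5 (1.11), Cd3d (0.74), Xcr1 (0.82), Zbtb46 (0.25), Clec9a (0.40), Cd79a (0.31), Acta1 (1.23), Krt8 (0.48), Krt19 (0.67) and Cfd (1.09) and a larger one for Col1a2 (0.55). The plot by tumor sets the members beside 6 of these lists.

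**Figure D3:**
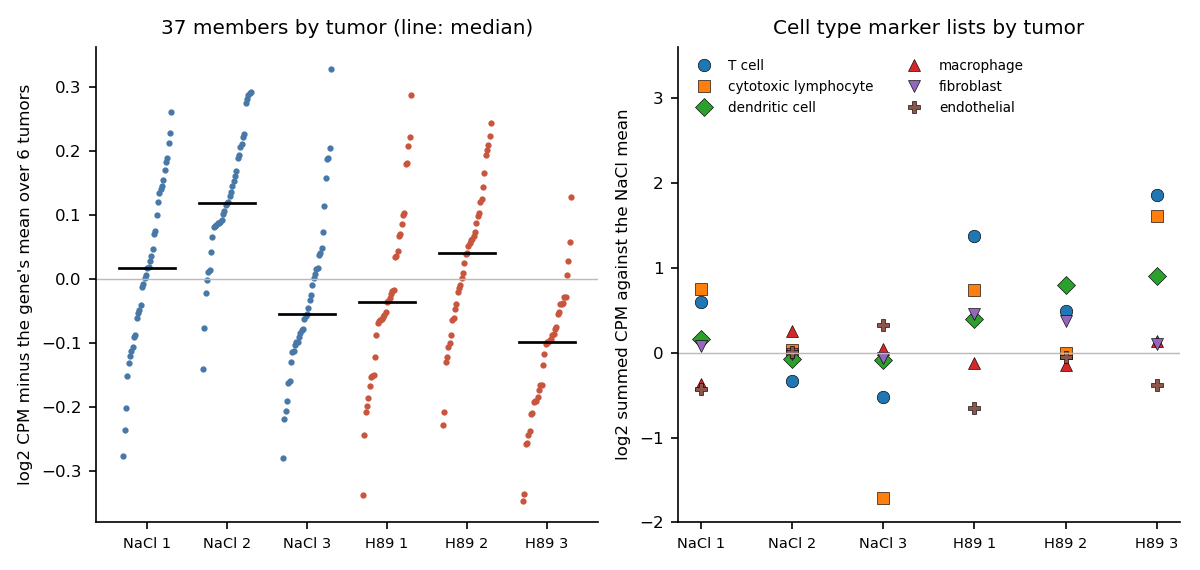
Left, log2 CPM of each of the 37 members in each tumor minus the gene's mean over the 6 tumors, with the median as a line; right, the log2 summed CPM of 6 cell type marker lists against their NaCl mean. The members' medians lie between -0.10 and 0.12, with H89 tumors 1 and 2 inside the NaCl range, while the T cell markers reach highest in H89 tumor 3.

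Between genes, levels were compared per 1000 bases of transcript. In NaCl tumors the members' median level was 31.4 CPM per 1000 bases, against 8.88 over the 12920 genes tested with a known length. Pcna, the sliding clamp, stood highest at 201, followed by Mcm7 at 91.7, Rrm2 at 79.0, Tk1 at 71.7 and Mcm6 at 66.4. The lowest levels were those of Orc1, at 1.84, and of Mcm10, Cdc6 and Ccne2, at 8.70, 9.06 and 9.09. Within the MCM helicase, whose subunits are needed in equal numbers, the level was 91.7 for Mcm7 and between 27.3 (Mcm4) and 66.4 (Mcm6) for the other subunits. Within the origin recognition complex it was 1.84 for Orc1, 17.5 for Orc2 and 35.8 for Orc6. Exons of 14 members overlap those of other genes in the GENCODE M21 annotation (GRCm38), among them Mcm7, Cdc45, Rfc2, Fen1 and Lig1, and the strand setting of the counting is not given in the sources used here. For 20 members, Dut, Pold2, Fen1 and Cdc45 among them, the estimated counts lay within 0.01 of a whole number in every tumor.

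What the members share in their promoters was read from the 250 bases before the outermost RefSeq start of each gene (GRCm38.p6), which were matched for 31 of 37 members (not Mcm4, Gins1, Gins2, Pole, Rfc2 and Ccne2). Each motif was searched on both strands. An E2F motif (TTTCCCGC, TTTCGCGC, TTTGCCGC or TTTGGCGC) lay in 7 of them, Orc1, Cdc6, Mcm5, Mcm6, Mcm7, Pola1 and Rfc3, which is 22.6% against 3.31% of the promoters of genes tested and 1.92% of all 27025 promoters. CCAAT, which the NF-Y factor binds, lay in 18 (58.1% against 36.8% and 34.5%, in the same order). TTTGAA, the CHR element of late cell cycle genes, lay in 4 (12.9% against 11.1% and 16.3%), the E-box CACGTG in 1, Tyms (3.23% against 8.20% and 6.04%), and the cAMP response element TGACGTCA in 1, Mcm5 (3.23% against 2.64% and 1.60%). The median log2 fold change was -0.10 for the 7 members with an E2F motif and -0.12 for the 24 without, and 3 of the 7 (Orc1, Cdc6 and Rfc3) and 5 of the 24 were above 0, with no test of a difference. Such a match is a description of letters and not of binding. Promoters are printed 5′ to 3′ for members with a small p, Pold2 (chr11:5878293-5878506, minus strand, without its last 36 bases, which are annotated as exon) and Fen1 (chr19:10204394-10204643, minus strand), and for those with at least 2 E2F matches, Mcm5 (chr8:75109259-75109508, plus strand) and Mcm6 (chr1:128359706-128359955, minus strand). RefSeq starts can differ from the GENCODE starts given below, and 60, 41 and 224 bases lie between window and GENCODE gene for Mcm5, Mcm6 and Fen1. The windows of Mcm7, Cdc6, E2f1 and Dut lie wholly inside their GENCODE genes, and some others overlap theirs in part. Mcm7 and Cdc6 are among the members counted with an E2F motif, and E2f1 and Dut among those without. The windows of Dut, Mcm7 and Cdc45 overlap annotated exons and are not printed. Capitals mark E2F and CCAAT matches (ATTGG on the other strand), and overlapping E2F matches form 1 longer run. Pold2 has a CCAAT match and no E2F match, and Fen1 has neither, while Mcm5 has 2 overlapping E2F matches and Mcm6 has 3.
Pold2: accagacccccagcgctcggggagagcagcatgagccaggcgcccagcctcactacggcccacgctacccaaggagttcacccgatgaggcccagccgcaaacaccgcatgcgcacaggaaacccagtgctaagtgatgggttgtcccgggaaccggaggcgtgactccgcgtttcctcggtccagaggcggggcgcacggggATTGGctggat
Fen1: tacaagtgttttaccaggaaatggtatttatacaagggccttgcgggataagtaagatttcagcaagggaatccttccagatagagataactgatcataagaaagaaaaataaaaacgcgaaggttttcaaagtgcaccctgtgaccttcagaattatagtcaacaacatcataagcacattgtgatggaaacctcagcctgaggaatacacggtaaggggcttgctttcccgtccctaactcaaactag
Mcm5: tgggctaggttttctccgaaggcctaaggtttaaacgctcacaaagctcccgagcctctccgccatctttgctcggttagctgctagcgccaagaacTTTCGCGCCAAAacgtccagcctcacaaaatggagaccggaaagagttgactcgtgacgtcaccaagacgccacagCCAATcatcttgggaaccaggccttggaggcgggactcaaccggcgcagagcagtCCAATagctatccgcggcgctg
Mcm6: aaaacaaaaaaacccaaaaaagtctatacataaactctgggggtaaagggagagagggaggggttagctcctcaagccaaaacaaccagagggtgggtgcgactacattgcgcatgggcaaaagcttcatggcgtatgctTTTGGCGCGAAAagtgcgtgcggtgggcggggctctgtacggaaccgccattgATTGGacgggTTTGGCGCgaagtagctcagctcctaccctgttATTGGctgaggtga

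The pre-replicative complex and the MCM helicase gave 11 members, of which 1 was lower and 0 higher at an unadjusted p under 0.05, with a median log2 fold change of -0.05 (0.02 with the total count only). Mcm7, a subunit of the helicase (ENSMUSG00000029730, chromosome 5 from 138164583 to 138172422 on GRCm38, the build of every position given), had 279, 279 and 257 CPM in NaCl tumors 1 to 3 and 220.1, 237 and 204 CPM in H89 tumors 1 to 3. Every H89 tumor lay below every NaCl tumor, with H89 tumor 3 the lowest. The means were 272 ± 12.3 CPM in NaCl and 220.4 ± 16.0 CPM in H89 tumors (SD, n = 3 each), with a log2 fold change of -0.30 ± 0.09 (SE, edgeR adjusted p = 0.101 by Benjamini-Hochberg).  Its exons overlap Mir25 and Mir93 on the same strand and Ap4m1 and Cops6 on the other, and its estimated counts lay up to 0.368 from a whole number. The other 5 subunits had log2 fold changes of -0.05 for Mcm2, 0.02 for Mcm3, 0.17 for Mcm4, -0.11 for Mcm5 and -0.10 for Mcm6, all with overlapping groups.

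Orc1, the subunit of the origin recognition complex whose level follows the cell cycle, had 5.36, 5.59 and 5.70 CPM in NaCl and 7.52, 7.05 and 6.05 CPM in H89 tumors. It was the only member whose H89 values all lay above its NaCl values, and H89 tumor 3 was closest to the NaCl tumors. The difference was a log2 fold change of 0.31 ± 0.15 (SE, edgeR adjusted p = 0.247 by Benjamini-Hochberg), and quantile normalization gave 0.15. Its counts were the lowest among the members, and it is described here because its groups did not overlap. Orc2 and Orc6, other subunits of that complex, had log2 fold changes of -0.15 and -0.03. Orc2 was called lower at an unadjusted p under 0.05, without overlap, after correcting for GC content and length (-0.23) and without NaCl tumor 1. Cdc6, which recruits the helicase to the complex, had 22.8, 24.9 and 21.9 CPM in NaCl and 28.8, 28.0 and 24.0 CPM in H89 tumors. H89 tumor 3 lay within the NaCl range, so the groups overlapped, and the log2 fold change was 0.22 (edgeR Benjamini-Hochberg adjusted p = 0.257). Cdt1, which loads the helicase together with Cdc6 and is destroyed in S phase, had 110.2, 103 and 93.0 and 93.1, 99.8 and 85.0 CPM, with overlap and a log2 fold change of -0.14. That value was -0.07 with the total count only and -0.05 after correcting for GC content and length.

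Among the 4 members that activate the helicase, Cdc45 was lower at an unadjusted p under 0.05, and the median log2 fold change was -0.12 (-0.06 with the total count only). Cdc45 (ENSMUSG00000000028, chromosome 16 from 18780447 to 18811987), which travels with the helicase at the fork, had 72.0, 65.8 and 62.8 CPM in NaCl tumors 1 to 3 and 54.2, 60.5 and 58.9 CPM in H89 tumors 1 to 3. NaCl tumor 1 was the highest and H89 tumor 1 the lowest, and NaCl tumor 3 and H89 tumor 2 lay close together across the gap. The means were 66.9 ± 4.70 CPM in NaCl and 57.9 ± 3.31 CPM in H89 tumors (SD, n = 3 each), with a log2 fold change of -0.21 ± 0.09 (SE, edgeR adjusted p = 0.186 by Benjamini-Hochberg). Of the 6 fits that left out a tumor, 1, that without NaCl tumor 3, kept the unadjusted p of Cdc45 under 0.05, with log2 fold changes from -0.25 (that fit) to -0.15 (without NaCl tumor 1). Its exons overlap Ufd1 on the other strand. Gins1 and Gins2, subunits of the GINS complex, had log2 fold changes of 0.20 and -0.10, and Mcm10, which helps to start the helicase, had -0.14. The groups overlapped for all 3 of these.

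Of the 5 polymerase and primase members, Pold2 was lower at an unadjusted p under 0.05, and the median log2 fold change was -0.11 (-0.04 with the total count only). Pold2 (ENSMUSG00000020471, chromosome 11 from 5872180 to 5878292), an accessory subunit of DNA polymerase delta, which copies the lagging strand, had 93.8, 102 and 87.1 CPM in NaCl tumors 1 to 3 and 75.9, 78.6 and 71.4 CPM in H89 tumors 1 to 3. All H89 tumors lay below all NaCl tumors, and H89 tumor 3 was the lowest. Pold2 averaged 94.4 ± 7.61 CPM in NaCl and 75.3 ± 3.61 CPM in H89 tumors (SD, n = 3 each), with a log2 fold change of -0.33 ± 0.09 (SE, edgeR adjusted p = 0.0874 by Benjamini-Hochberg). With correction for GC content and transcript length, chosen after the data were seen, its log2 fold change was -0.20 and its unadjusted p was no longer under 0.05. Pold2 is shorter and richer in G and C than the typical member, at 1646 bases and 58.8%, against members' medians of 2962 bases and 49.4%. Its promoter, printed above, holds a CCAAT match near its end. Pold1, the catalytic subunit of the same polymerase, had 130.3, 126 and 111 and 113, 117 and 111 CPM, with overlap and a log2 fold change of -0.11.

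Prim1, the catalytic subunit of the primase that starts each new strand, had 39.5, 44.1 and 44.7 CPM in NaCl and 54.3, 55.1 and 43.4 CPM in H89 tumors. H89 tumors 1 and 2 lay above the NaCl tumors and H89 tumor 3 within their range, with a log2 fold change of 0.25 ± 0.11 (SE, edgeR adjusted p = 0.214 by Benjamini-Hochberg). Pola1, the catalytic subunit of polymerase alpha, which shares a complex with Prim1, had a log2 fold change of -0.11. Pole, the catalytic subunit of the leading strand polymerase epsilon, had -0.12, and both overlapped between the groups. After correcting for GC content and length, Pola1 had -0.26 without overlap and was called at an unadjusted p under 0.05. It had -0.04 with the total count only and -0.21 to 0.01 with a tumor left out.

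The clamp and its loader gave 5 members, with Rfc2 lower at an unadjusted p under 0.05 and a median log2 fold change of -0.12 (-0.06 with the total count only). Rfc2 (ENSMUSG00000023104, chromosome 5 from 134581366 to 134601805), a subunit of replication factor C, which places the clamp on DNA, had 93.6, 102 and 89.8 CPM in NaCl tumors 1 to 3 and 84.0, 79.8 and 76.8 CPM in H89 tumors 1 to 3. The groups did not overlap, with H89 tumor 3 the lowest and NaCl tumor 2 the highest. Rfc2 averaged 95.2 ± 6.32 CPM in NaCl and 80.2 ± 3.602 CPM in H89 tumors (SD, n = 3 each), with a log2 fold change of -0.25 ± 0.08 (SE, edgeR adjusted p = 0.127 by Benjamini-Hochberg). Its unadjusted p stayed under 0.05 without NaCl tumor 1, NaCl tumor 3 or H89 tumor 1 and not without NaCl tumor 2 (log2 fold change -0.19), H89 tumor 2 (-0.24) or H89 tumor 3 (-0.22). Its exons overlap Lat2 on the other strand. Pcna, the clamp, had 291, 323 and 299 CPM in NaCl and 305, 325 and 310.0 CPM in H89 tumors, nearly level across all 6, and a log2 fold change of 0.04. The remaining loader subunits had 0.04 for Rfc3, -0.23 for Rfc4 and -0.12 for Rfc5, with overlap, and Rfc4 was the least precise of the 37, with a standard error of 0.15. Pcna-ps1 and Pcna-ps2 are annotated as pseudogenes of Pcna, with which its reads could have been shared.

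Fen1 and Lig1 finish the fragments of the lagging strand, and for both, each H89 tumor was lower than each NaCl tumor. Fen1 (ENSMUSG00000024742, chromosome 19 from 10199132 to 10204169), the nuclease that removes the flap at the end of a fragment, had 51.0, 56.6 and 54.2 CPM in NaCl tumors 1 to 3 and 47.3, 42.0 and 41.9 CPM in H89 tumors 1 to 3. H89 tumors 2 and 3 were the lowest and nearly equal, with H89 tumor 1 between them and the NaCl tumors. Fen1 averaged 53.9 ± 2.82 CPM in NaCl and 43.8 ± 3.10 CPM in H89 tumors (SD, n = 3 each), with a log2 fold change of -0.30 ± 0.09 (SE, edgeR adjusted p = 0.1003 by Benjamini-Hochberg). Exons of Fen1 overlap Gm10143 and Tmem258 on the other strand. Its printed promoter holds neither an E2F nor a CCAAT match. Lig1 (ENSMUSG00000056394, chromosome 7 from 13277283 to 13311433), the ligase that seals the fragments, had 146, 148 and 129.8 CPM in NaCl and 119, 122.7 and 129.6 CPM in H89 tumors. H89 tumor 3 reached almost to NaCl tumor 3, so the gap was narrow, and the log2 fold change was -0.19 ± 0.09 (SE, edgeR adjusted p = 0.214 by Benjamini-Hochberg). The gap was lost with median ratio, total count and quantile scaling, at 5 CPM, after the correction for GC content and length and without NaCl tumor 2, and the log2 fold change was -0.12 with the total count and -0.11 with quantile normalization and limma. Exons of Lig1 overlap Zswim9 on the other strand.

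Of the 5 members that supply nucleotides, Dut fell and the others overlapped between the groups, with a median log2 fold change of -0.01 (0.06 with the total count only and 0.07 with quantile normalization). Dut (ENSMUSG00000027203, chromosome 2 from 125247190 to 125258608) encodes dUTPase, which keeps uracil out of DNA and makes the dUMP that thymidylate synthase uses. It had 94.0, 105 and 109 CPM in NaCl tumors 1 to 3 and 73.0, 73.8 and 72.4 CPM in H89 tumors 1 to 3. The 3 H89 tumors were almost equal, each lay below each NaCl tumor, and the NaCl tumors varied more among themselves. The mean dropped from 102 ± 7.54 CPM in NaCl to 73.1 ± 0.722 CPM in H89 tumors (SD, n = 3 each), which is 71.4% of the NaCl level and a log2 fold change of -0.49 ± 0.08 (SE, edgeR adjusted p = 0.0415 by Benjamini-Hochberg). With any tumor left out, the adjusted p of Dut lay above 0.05, from 0.0667 to 0.142 (edgeR, Benjamini-Hochberg), with log2 fold changes from -0.54 to -0.44. No exon of Dut overlaps another annotated gene.

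Rrm1 and Rrm2, the large and the small subunit of ribonucleotide reductase, had log2 fold changes of 0.11 and -0.01. Rrm2, which limits the enzyme's activity in S phase, had 171, 187 and 161 CPM in NaCl and 158, 190.4 and 168 CPM in H89 tumors, a near-complete overlap. Tyms, the thymidylate synthase that receives the product of Dut, had 63.9, 77.6 and 64.8 and 74.4, 75.5 and 61.9 CPM, with overlap, and 0.04. Tk1, the thymidine kinase of the salvage route, had 101, 122.6 and 86.0 and 94.1, 109 and 91.1 CPM and -0.07, with NaCl tumors 2 and 3 as its highest and lowest values. The difference between Dut and these genes, which act on the same pathway, was not tested. Tyms-ps is annotated as a pseudogene of Tyms.

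Ccne1, Ccne2 and E2f1, which drive entry into S phase, had 0 members called at an unadjusted p under 0.05 by edgeR, DESeq2 or limma without correction for GC content. Ccne2 had the smallest p of the 3 and encodes cyclin E2, a partner of CDK2. It had 25.1, 27.4 and 29.5 CPM in NaCl tumors 1 to 3 and 25.4, 23.7 and 24.2 CPM in H89 tumors 1 to 3. NaCl tumor 1 lay just under H89 tumor 1, so the groups overlapped through that pair. Ccne2 averaged 27.3 ± 2.18 CPM in NaCl and 24.4 ± 0.873 CPM in H89 tumors (SD, n = 3 each), with a log2 fold change of -0.16 ± 0.10 (SE, edgeR adjusted p = 0.334 by Benjamini-Hochberg), and -0.33 after correcting for GC content and length of the transcript, -0.09 with the total count only and -0.11 without NaCl tumor 3. Its transcript is the poorest in G and C among the members, at 36.3%, and its exons overlap Ints8 on the other strand. Ccne1, the other cyclin E, had -0.17, and E2f1, the activating E2F factor, had -0.03 with NaCl tumor 1 the highest at 118 CPM.

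Uhrf1 and Dnmt1 copy DNA methylation onto the new strand, and neither was called at an unadjusted p under 0.05. Uhrf1, which recognises half-methylated DNA behind the fork, had 222, 225 and 183 CPM in NaCl tumors 1 to 3 and 170.5, 205 and 182 CPM in H89 tumors 1 to 3. NaCl tumors 1 and 2 were the highest, while NaCl tumor 3 lay among the H89 tumors. Uhrf1 averaged 210.0 ± 23.2 CPM in NaCl and 186 ± 17.9 CPM in H89 tumors (SD, n = 3 each), with a log2 fold change of -0.18 ± 0.11 (SE, edgeR adjusted p = 0.365 by Benjamini-Hochberg). Of the 17 alternative settings 1 called it, that without NaCl tumor 3 (-0.27), while the log2 fold change was -0.12 without H89 tumor 1, -0.10 with the total count only and -0.08 with quantile normalization and limma. Dnmt1, the methyltransferase, had 167, 179.8 and 158 and 159.6, 175 and 163 CPM, level between the groups, with -0.02. The plot of CPM by tumor shows the 6 called members with Ccne2 and Uhrf1.

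**Figure D4:**
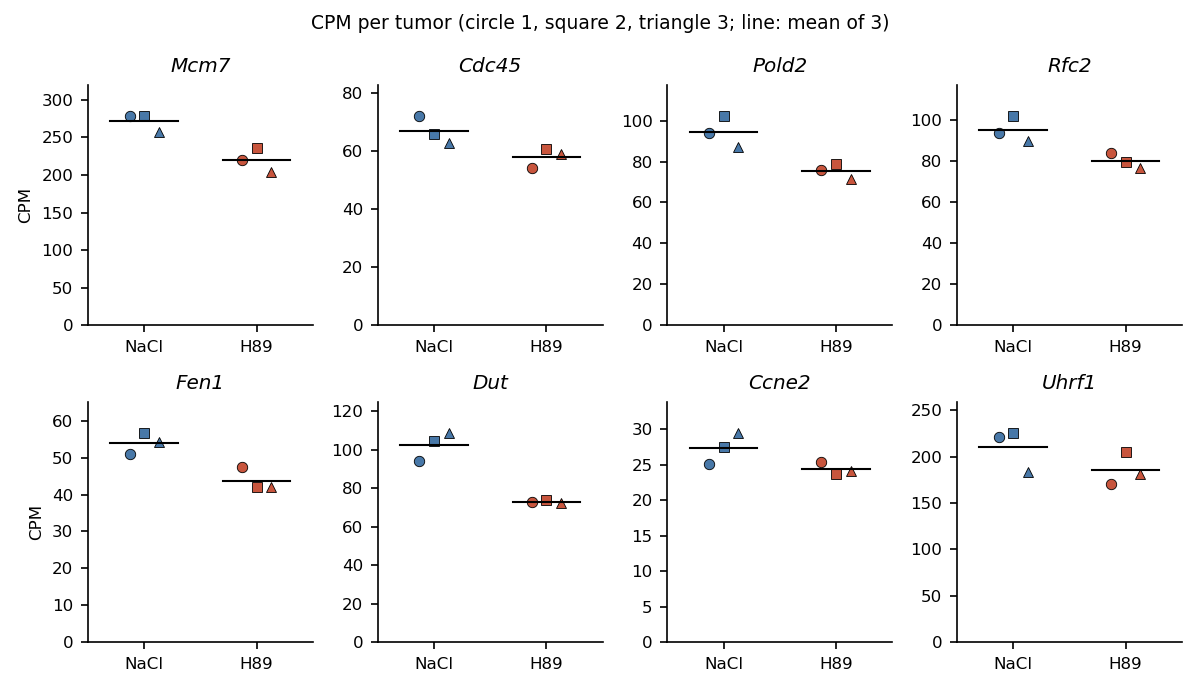
CPM of 8 members in each tumor, with NaCl in blue, H89 in red, tumors 1 to 3 as circle, square and triangle, and the mean of 3 as a line. Every H89 value is under every NaCl value for Mcm7, Cdc45, Pold2, Rfc2, Fen1 and Dut, and the groups overlap for Ccne2 and Uhrf1.

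Ratios between genes of a shared step do not depend on scaling by a common factor for all genes of a tumor. They were compared by an exact permutation test of both directions, whose smallest p with 3 tumors against 3 is 0.1. The log2 ratio of Rrm2 to Rrm1 was 0.33, 0.09 and -0.05 in NaCl and 0.01, 0.00 and 0.00 in H89 tumors, all within the NaCl range (difference -0.12, exact permutation p = 0.4). That of Cdt1 to Gmnn, the gene of geminin, which inhibits Cdt1, was 2.59, 2.39 and 2.35 and 2.08, 2.18 and 2.03. It was lower in every H89 tumor, by a mean difference of -0.35 (exact permutation p = 0.1), with Gmnn at 18.2, 19.7 and 18.3 and 22.03, 22.01 and 20.9 CPM and higher in every H89 tumor (0.21, edgeR Benjamini-Hochberg adjusted p = 0.223). After the values were seen, Mcm7 and Pold2 were each set against the partners they are bound to. Mcm7 against the mean of the other 5 helicase subunits gave 0.91, 0.82 and 0.87 in NaCl and 0.60, 0.59 and 0.54 in H89 tumors, a difference of -0.29 with no overlap (exact permutation p = 0.1). Pold2 against Pold1 gave -0.47, -0.31 and -0.35 and -0.57, -0.58 and -0.64, a difference of -0.22 with no overlap (exact permutation p = 0.1). Both pairs were picked for their difference, so that the lack of overlap adds nothing to the values of Mcm7 and Pold2 above.

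**Figure D5:**
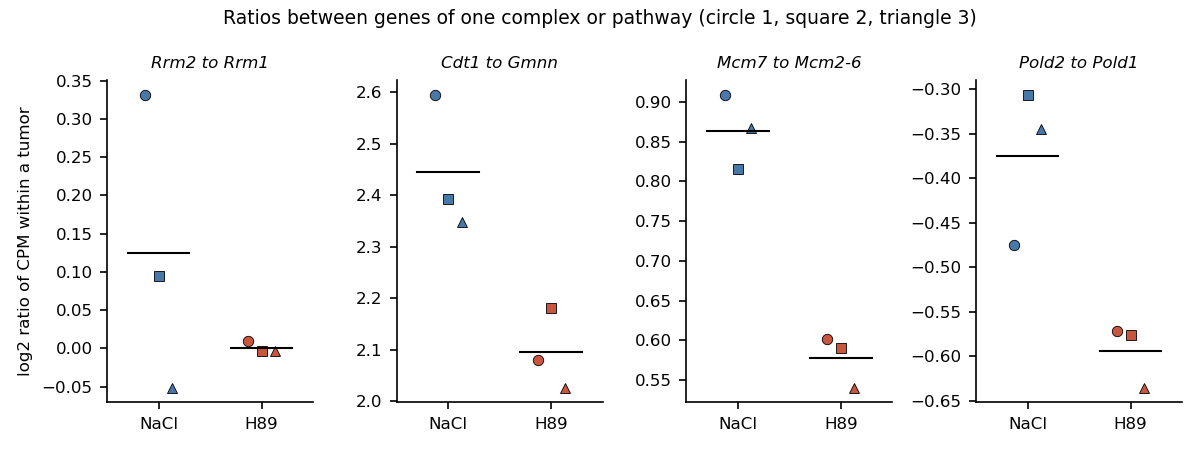
Log2 ratio of CPM within each tumor for 4 gene pairs, with NaCl in blue, H89 in red, tumors 1 to 3 as circle, square and triangle and the mean of 3 as a line; the vertical axes differ. H89 tumors lie below NaCl tumors for Cdt1 to Gmnn, Mcm7 to the mean of Mcm2 to Mcm6, and Pold2 to Pold1, and overlap with them for Rrm2 to Rrm1.

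The genes around the members were counted in lists. For comparison with the counts in these lists, 11.9% of all genes tested were lower and 13.1% higher at an unadjusted p under 0.05. Of 36 other replisome and licensing genes, 6 were lower and 2 higher (Cdc7 and Orc3, at 0.28) at an unadjusted p under 0.05, and the median log2 fold change was 0.02 (0.09 with the total count only and -0.02 with quantile normalization). Cdc7, the kinase that fires origins by phosphorylating the helicase, rose, with 21.5, 24.4 and 22.1 against 32.9, 36.9 and 34.1 CPM in NaCl and H89 tumors and a log2 fold change of 0.61 ± 0.09 (SE, edgeR adjusted p = 0.0407 by Benjamini-Hochberg). Pold4, the smallest subunit of DNA polymerase delta, dropped, with 42.0, 33.1 and 41.1 against 20.2, 18.8 and 23.2 CPM and a log2 fold change of -0.90 ± 0.13 (SE, edgeR adjusted p = 0.0407 by Benjamini-Hochberg). Every H89 tumor lay above every NaCl tumor for Cdc7 and below for Pold4. Exons of Pold4 overlap AC109138.7 on the same strand. With any tumor left out, the adjusted p of Cdc7, Pold4 and Cdkn1a (below) lay between 0.0667 and 0.142 (edgeR, Benjamini-Hochberg). Rnaseh2c and Rnaseh2a, subunits of the nuclease that removes ribonucleotides from DNA, had -0.47 and -0.37 without overlap, but exons of both overlap other genes (Kat5 for Rnaseh2c, Gm49661 and Prdx2 for Rnaseh2a). Of 16 fork protection and checkpoint genes, 1 was lower, Tipin (-0.23), which steadies the fork, and 1 higher, Atr (0.38), the kinase of the S phase checkpoint, with a median of -0.02 (0.05 with the total count only and -0.08 after correcting for GC content and length). Of 20 other nucleotide supply genes, 3 were lower and 1 higher, with a median of -0.09 (-0.01 with the total count only). Impdh2, of guanine nucleotide synthesis, had 194, 201 and 213 against 155, 155 and 153 CPM (-0.39, edgeR Benjamini-Hochberg adjusted p = 0.0515), and Nme1, a nucleoside diphosphate kinase, and Tk2, the mitochondrial thymidine kinase, had -0.42 and -0.23. Samhd1, which breaks down dNTPs and is abundant in myeloid cells, had 262, 234 and 133 against 379, 239.8 and 384 CPM with overlap (0.67, and 0.43 without NaCl tumor 3).

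Of 12 genes of the E2F and RB families, 1 was lower and 2 higher at an unadjusted p under 0.05, with a median log2 fold change of 0.13 (0.21 with the total count only and 0.08 after correcting for GC content and length). E2f4, a mostly repressing factor, had 245, 242 and 216 against 188, 178 and 172 CPM (-0.39), below in every H89 tumor, E2f3, an activator, had 0.29, and Rbl2, the pocket protein that pairs with E2f4, had 0.32 (0.21 without H89 tumor 3) with overlap. Of 16 tested cyclins, kinases and inhibitors of G1 and S phase, 6 were lower and 1 higher, and the median was -0.19 (-0.12 with the total count only). Cdkn1a, the gene of the inhibitor p21, which also binds PCNA, dropped, with 348, 316 and 301 against 208, 171 and 210.3 CPM and a log2 fold change of -0.71 ± 0.11 (SE, edgeR adjusted p = 0.0407 by Benjamini-Hochberg). Ccnd1, the gene of cyclin D1, had 1348, 1332 and 1235 against 941, 1025 and 948 CPM (-0.43, edgeR Benjamini-Hochberg adjusted p = 0.0529), and Cks1b, a kinase subunit, and Myc had -0.36 and -0.38, each below in every H89 tumor. Quantile normalization with limma gave -0.18 for Ccnd1, and correction for GC content and length gave -0.25 for Myc and 0.19 for Cdkn1b (below). The 1 higher gene, picked after its value was seen, was Cdkn1b, of the inhibitor p27, with 45.5, 39.8 and 49.2 against 51.8, 55.9 and 58.6 CPM and 0.31, above in every H89 tumor. Ccna2, cyclin A2, which works within S phase, had 284, 312 and 270.1 against 256, 296 and 266 CPM with overlap (-0.08, with -0.15 to -0.02 when a tumor was left out, and 0.02 with quantile normalization). Of 14 chromatin assembly genes, 3 were lower and 1 higher, with a median of -0.04 (0.03 with the total count only or quantile normalization). Ssrp1, of the histone chaperone FACT, had -0.44, Rbbp4 and Chaf1a, subunits of CAF-1, had -0.21 and -0.19, and Hells, a chromatin remodeler, had 0.32. Rbbp4 had -0.14 with quantile normalization and limma, and Hells 0.13 and Atr 0.19 after correcting for GC content and length. Exons of Ccnd1, Cdkn1a, Ssrp1, Rbbp4, Chaf1a, Impdh2, Nme1, Atr and Rbl2 overlap other annotated genes, with which reads could have been shared.

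Genes of mitosis, which follows S and G2, were counted too. Of 30 such genes, 0 were lower and 1 was higher at an unadjusted p under 0.05 in edgeR, Cenpe, a kinetochore motor (0.29), and the median was 0.07. Mki67, the gene of the marker Ki-67, had 213, 239 and 259 against 251, 309 and 270.1 CPM with overlap (0.22), and Top2a, the topoisomerase of dividing cells, had 326, 369 and 332 against 345, 379 and 402 CPM with overlap (0.13). Of 5 reference genes, 1 was higher, Tbp (0.22), and the median was 0.05 (0.12 with the total count only and 0.00 after correcting for GC content and length). The median of the mitotic genes moved to 0.01 after correction for GC content and length, with 13 of 30 below 0, to 0.14 with the total count only and to 0.13 with quantile normalization and limma. The same correction gave 0.11 for Mki67, 0.01 for Top2a, 0.15 for Cenpe and 0.04 for Tbp, and -0.08 for the members' median. Quantile normalization with limma gave Mki67 0.34 and Top2a 0.27, and the lowest values with a tumor left out were 0.14 and 0.08. No test of a difference between lists was run. Over all genes tested with a length, the log2 fold change went with length (Spearman 0.20) and against GC content (-0.24), and over the 37 members these were -0.05 and -0.35. Genes are not independent replicates, and these correlations describe the tumors' libraries only. After correcting for GC content and length of the transcript, Dut had a log2 fold change of -0.46, Mcm7 -0.26 and Fen1 -0.24.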

How the data were processed

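The authors deposited 1 table of estimated counts per gene and tumor; the submitters' processing notes name kallisto, DESeq2 and the build GRCm38, without versions. The table is labelled TPM but was read as estimated counts, from its totals and from 58.6% to 61.4% of values above 0 within 0.01 of whole numbers. Of its 23557 gene columns, 276 were recorded by name and the rest read alike. Counts were rounded and fitted in edgeR 4.0.16 (R 4.3.3; TMM, quasi-likelihood F test, treatment alone in the model); the standard error is the log2 fold change over the square root of F. Alternatives were median ratio and total count scaling, quantile normalization with limma, no filter or 5 CPM, and DESeq2 1.42.0. DESeq2 was run without a CPM filter and with its default filter on mean counts. Further alternatives were limma 3.58.1 with pseudocounts of 0.5, 1 and 0.1, fits without each tumor, and a block on the replicate number.

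Members and lists were chosen with earlier results of these data known. Full values were set for members with an unadjusted p under 0.05 and the smallest p of each other role; in other lists up to 4 genes with the smallest p under 0.05 were named, with Mki67, Top2a, Gmnn, Ccna2, Myc and Cdkn1a. Lig1, Orc1, Cdc6, Prim1, Orc3 and Cdkn1b, the ratios of Mcm7 and Pold2, and the loess correction for GC content and length (span 0.3) were chosen after values were seen. Positions are of GENCODE M21. Replicates differed beyond counting noise (chi-square per gene of 28 to 112 over 11742 genes, highest with H89 tumor 3). The p-values set the difference between groups against the spread among 3 tumors per group. The labels give no batch, and a batch that followed the treatment could not be told apart from it. The fitting steps were tested on simulated counts.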

Additional observations from a re-analysis of the deposited data

How the results depend on the processing

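Dut, Mcm7 and Fen1 were lower at an unadjusted p under 0.05 in all 17 alternative settings, Pold2 in 16, Rfc2 in 12 and Cdc45 in 8. The members lower at that threshold numbered 4 to 8, and their median log2 fold change stayed below 0, from -0.14 to -0.04. Their share was 10.8% to 21.6%, where that of genes was 6.90% to 14.6%. It was 21.6% against 9.62% of genes without NaCl tumor 3 and 21.6% against 13.1% with the correction for GC content and length. With quantile normalization and limma it was 10.8% against 11.1%. Among members that were not called, 0 to 5 had the other sign in a setting. Members with an adjusted p under 0.05, 1 in the fit reported, numbered 0 with the total count only and with quantile normalization and limma. They numbered 4 with DESeq2 under its own filter (Mcm7, Pold2, Fen1 and Dut) and 0 with each tumor left out (from 0 to 0). All genes together gave 164, 80, 1392 and 0 to 12 in these fits instead of 208. With DESeq2, 4 of 37 members were lower at that threshold, against 758 of 18828 genes, and 0 members were higher, against 634 genes. Members higher at an unadjusted p under 0.05, 0 as reported, numbered 3 with the total count only and 3 at a mean of at least 5 CPM. The shares were 8.11% against 17.5% and 13.2% of genes. They numbered 1 with the correction for GC content and length (Prim1, 2.70% against 13.9%), which was added after the data were seen. With a tumor left out they numbered 0 to 3, where 9.58% to 12.4% of genes were higher. Without overlap, 1 member lay above (2.70% against 15.2% of genes), and 4 with the total count only (10.8% against 20.4%), 0 with quantile normalization and limma (against 11.6%), 2 at 5 CPM (5.41% against 15.3%) and 1 to 4 with a tumor left out (2.70% to 10.8% against 19.0% to 22.4%). The 7 that lay below (18.9% against 15.5%) became 5 with the total count only (13.5% against 10.0%), 9 with the correction for GC content and length (24.3% against 16.6%) and 6 to 13 with a tumor left out (16.2% to 35.1% against 18.6% to 23.7%). The cause of these changes was not tested.

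With the replicate number as a block, 0 members and 0 genes had an edgeR adjusted p under 0.05, and between tumors of the same number 17 members were lower (45.9%) and 7 higher (18.9%) in all 3 pairs, against 26.5% and 26.6% of all genes tested. The labels do not say that a number pairs tumors. Deviations of same-numbered tumors correlated across genes at 0.163, 0.0609 and -0.0249, and not every tumor correlated best with its own number (NaCl tumor 3 and H89 tumor 2 at 0.35). At an unadjusted p under 0.05, 5 of the 6 lower members (not Cdc45) were lower with the block too, and 0 were higher. Of all genes, 14.6% were lower and 14.0% higher in that fit. Ratios do not depend on scaling by a common factor per tumor, but quantile normalization and the correction for GC content and length can change them. With quantile normalization and limma, Cdt1 had -0.09 and Gmnn 0.16, and with the correction Rrm2 had -0.04 and Rrm1 0.02. Among the fits without a tumor the difference for Rrm2 to Rrm1 ran from -0.21 (without NaCl tumor 3) to -0.02 (without NaCl tumor 1) around -0.12, and that for Cdt1 to Gmnn from -0.40 to -0.27. With a tumor left out, members not called in the fit reported ran from -0.23 to -0.08 for Orc2, -0.21 to -0.08 for Cdt1 and 0.10 to 0.23 for Mcm4. Mcm10 had -0.20 to -0.02, Gins1 0.11 to 0.28, Rfc4 -0.36 to -0.13 and Ccne1 -0.26 to -0.09. Orc2 and Rfc4 were called lower at an unadjusted p under 0.05 without NaCl tumor 1, and Mcm4 higher without H89 tumor 1. Ranges that crossed 0 included Gins2 (-0.18 to 0.03), Tk1 (-0.19 to 0.07), E2f1 (-0.14 to 0.10) and Orc6 (-0.13 to 0.04). Rrm1 had 0.01 to 0.18, Pole -0.20 to -0.05 and Rfc5 -0.18 to -0.05. Orc1, with the lowest counts of the members (149 to 232), had a standard error of 0.15 against a median of 0.10.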
